A study of Mus musculus with 4 samples.

Results

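The 10 genes described here encode S100 proteins, annexins and their partner Ahnak: S100a4, S100a6, S100a10, S100a11, S100a13, Anxa1, Anxa2, Anxa5, Anxa6 and Ahnak. They were taken by symbol from a counts table of 27179 genes, and all 10 were among the 11172 genes with enough counts to test. RNA had been sequenced from CD4+Foxp3+ regulatory T (Treg) cells from spleen and peripheral lymph nodes of steady-state C57BL/6 mice. Of 4 libraries, 2 were wild type (WT) and 2 were labelled P65KO, described as lacking RelA (p65), a DNA-binding subunit of NF-kB. Not given in the sources used here: the Cre driver or other means of deletion, mouse age, and the number of mice per library.

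S100 proteins are small EF-hand proteins that mostly form dimers, expose a hydrophobic surface on binding calcium and then grip a target protein. Annexins bind acidic phospholipids in a calcium-dependent way and act at membranes, in repair, vesicle traffic and attachment of the cortical cytoskeleton. The families meet in complexes: S100a10 (p11) joins Anxa2, S100a11 joins Anxa1, and the giant scaffold Ahnak docks on the S100a10 and Anxa2 complex. In T cells, S100a4, S100a6, S100a10, S100a11, Anxa1 and Anxa2 are widely used as transcripts of antigen-experienced and tissue-homing cells. Several of them are abundant in myeloid cells as well.

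Of the 10 members, 6 were lower in the P65KO libraries: S100a11 3.26-fold, S100a6 2.88-fold, S100a4 2.79-fold, Ahnak 2.15-fold, S100a10 1.77-fold and Anxa2 1.53-fold. In the other direction, 0 of the 10 passed. Over all genes tested, 20.7% passed the threshold, 11.7% as lower and 9.0% as higher (edgeR quasi-likelihood F test, two-sided, adjusted p under 0.05). S100a13, Anxa5 and Anxa6 stood at nearly equal levels in both groups. Anxa1, the scarcest of the 10 in counts, was highest in a single P65KO library and did not pass (edgeR adjusted p = 0.0555). With edgeR, 1 of the 10, Anxa1, was higher at an unadjusted p under 0.05, while DESeq2 and limma-voom called 0 as higher. The median log2 fold change was -0.72 over the members and 0.00 over all genes tested.

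**Figure D1:**
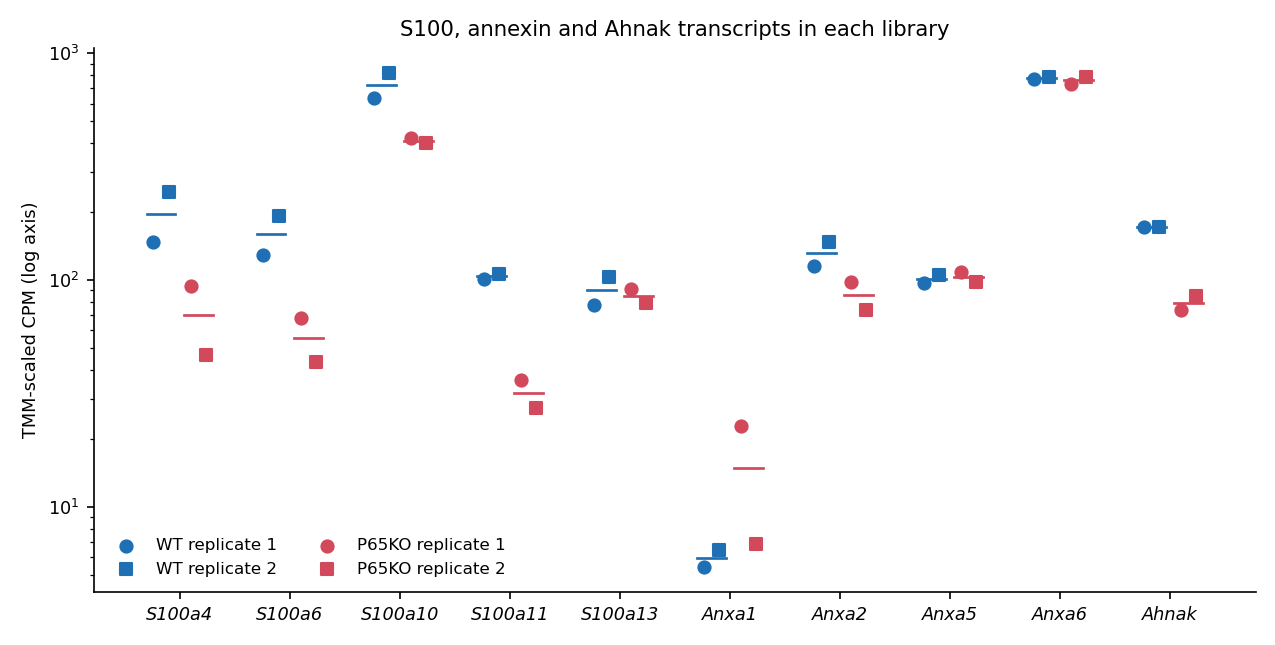
Level of each of the 10 genes in each library, in CPM (counts scaled to library size, with TMM factors), on a log axis; circles are replicate 1, squares replicate 2, and bars the group means. S100a4, S100a6, S100a10, S100a11, Anxa2 and Ahnak passed as lower in P65KO, as did 11.7% of all genes tested. Anxa1 is high in P65KO replicate 1 (22.7 CPM).

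The libraries were of even depth, with 4513863 to 4624230 counts and 14025 to 14392 genes detected. Rela, the targeted gene, was counted 875 and 806 times in WT libraries, 820 and 909 times in P65KO libraries, so its whole-gene count showed no loss (edgeR adjusted p = 0.662); exons outside a deleted part would still be counted, and the genotype label could not be checked this way. The T cell and Treg markers Cd3e, Cd4 and Foxp3 were abundant in every library, at 722 to 915, 964 to 1153 and 371 to 528 CPM. Markers of macrophages and monocytes rose in P65KO for 7 of the 10 tested, and 1 fell; without WT replicate 1, without WT replicate 2 or with no filter on low counts, 2 rose and 0 fell. Their summed level over all 11 markers was 284 and 356 CPM in WT, 1204 CPM in P65KO replicate 1 and 452 CPM in P65KO replicate 2. Lyz2 was the largest part of it in every library, at 635 CPM in P65KO replicate 1. Of the 9 neutrophil markers, 4 were tested and 0 passed in either direction (edgeR; 2 were higher at an unadjusted p under 0.05, DESeq2 and limma-voom called 0; without P65KO replicate 2, 5 were higher, and with the replicate number as a block, 1), with a sum of 15.2 and 15.1 CPM in WT against 68.1 and 10.6 CPM in P65KO. The neutrophil marker Ly6g had 1 count over all 4 libraries. Lymphoid markers also moved: of 5 NK and innate lymphoid markers, 2 fell (Nkg7 and Klrb1c) and 0 rose. Klrd1 (2.62-fold) and Eomes (1.72-fold) were higher at an unadjusted p under 0.05 (edgeR). DESeq2 and limma-voom called 0 as higher, and with the replicate number as a block, 1 was higher. Sums over the 5 were 71.4 and 83.9 CPM in WT, 49.2 and 39.2 CPM in P65KO. Nkg7 made up the largest part of the sum in every library. Of 6 B cell markers, 2 were tested and fell, with sums of 49.5 and 52.5 CPM against 24.3 and 15.1 CPM. Dendritic cell markers rose for 2 of 3 tested (Itgax and Flt3), from sums of 8.46 and 13.6 CPM to 117 and 57.1 CPM. Itgax was the largest part of that sum in every library, at 94.2 and 48.5 CPM in P65KO. Zbtb46 did not pass, and Xcr1, with too few counts to test, had 5 and 10 counts in WT, 5 and 2 in P65KO. Erythroid markers rose for 4 of 4 tested, with sums of 21.3 and 27.8 CPM in WT, 105 and 192 CPM in P65KO; without either WT library, 2 rose. Of 8 stromal, endothelial and epithelial markers, 2 were tested: Epcam fell 4.66-fold, a call that ended without WT replicate 2, and Pecam1 rose 1.5-fold, a call that ended without WT replicate 2, without P65KO replicate 2 and with no filter. Among 10 T and Treg cell markers, Cd3g, Ctla4 and Ikzf2 fell and Il2ra rose. The fall of Cd3g was 1.2-fold and near the threshold (edgeR adjusted p = 0.0452). T and Treg markers lower numbered 2 with scaling by DESeq2 size factors, with no filter and with the replicate number as a block. Leaving out 1 library also moved other counts: NK markers lower numbered 1 without WT replicate 2, B cell markers lower 1 without either WT library or P65KO replicate 2, dendritic cell markers higher 1 without either WT library, and T and Treg cell markers higher 0 without either WT library or P65KO replicate 2 and 2 without P65KO replicate 1. The part of any of these cell types in the members' values was not tested. Xist had 494 and 608 counts in WT but 0 and 2 in P65KO. Ddx3y had 0 in each WT library but 302 and 404 in P65KO. Sex-linked transcripts thus split the libraries just as the genotype label does. For every gene described here, the members that fell included, a difference by genotype and one by sex cannot be told apart. In pooled RNA, fewer cells that use a gene and less RNA per cell cannot be told apart either.

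Among the S100 members, S100a10 was the most abundant per length. S100a10 (Entrez 20194; GRCm38 chromosome 3, 93555117 to 93564645) lacks working calcium-binding loops and is held in its active shape regardless of calcium. It ranked 63 of 11172 genes by mean RPKM (CPM per kilobase of gene length, without TMM) in WT, and 125 in P65KO. Its level was 634 and 819 CPM in WT and 421 and 401 CPM in P65KO. The 2 P65KO libraries lay close together and under both WT libraries. On the log2 scale the difference was -0.82 (SE 0.12; 95% interval -1.08 to -0.57; edgeR adjusted p = 3.085e-04).

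S100a4 and S100a6 lie on either side of S100a5 in the S100 cluster, and showed the widest spread between replicates of the genes that fell. S100a4 (Entrez 20198; chromosome 3, 90603770 to 90606045), also called metastasin, binds non-muscle myosin and acts in cell motility. It stood at 148 and 243 CPM in WT and at 93.7 and 46.5 CPM in P65KO. The groups did not overlap, but the higher library of each group was well above its partner. The log2 fold change was -1.48 (SE 0.26; interval -2.05 to -0.91; edgeR adjusted p = 0.00159). Without WT replicate 2 it was -1.07 and no longer passed (edgeR adjusted p = 0.131), and without P65KO replicate 1 it was -2.07. The call also ended with no filter on low counts (0.126) and with DESeq2 (DESeq2 adjusted p = 0.0949).

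S100a6 (Entrez 20200; chromosome 3, 90612894 to 90614414), or calcyclin, is named for its link to the cell cycle. Its level was 130 and 191 CPM in WT and 67.7 and 43.6 CPM in P65KO. Its libraries stood in the same order as those of S100a4, S100a10, S100a11 and Anxa2, with WT replicate 2 highest and P65KO replicate 2 lowest. Its log2 difference was -1.53 (SE 0.20; interval -1.95 to -1.10; edgeR adjusted p = 1.530e-04), and the call ended only with no filter on low counts (edgeR adjusted p = 0.0612) among 10 alternatives tried. S100a10 lost its call under that same setting alone (edgeR adjusted p = 0.0513). Per length, the ratio of S100a4 to S100a6 stayed between 1.54 and 2.0 over the 4 libraries.

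S100a11 (Entrez 20195; chromosome 3, 93520496 to 93526288), or calgizzarin, is a partner of annexins in membrane repair. It had the largest fall of the 10 genes and WT replicates closer together than those of S100a4, S100a6 and S100a10, at 101 and 106 CPM in WT and 36.4 and 27.2 CPM in P65KO. The log2 fold change was -1.70 (SE 0.13; interval -1.99 to -1.42; edgeR adjusted p = 2.271e-06), and it passed under all 10 alternatives, from -1.92 to -1.51. A pseudogene named S100a11-ps is annotated on chromosome 12; whether reads are shared with it was not tested. Because S100a11 fell more than S100a10, the RPKM ratio of S100a10 to S100a11 was 4.86 and 5.98 in WT and 8.97 and 11.4 in P65KO.

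S100a13 (Entrez 20196; chromosome 3, 90514233 to 90524581), which takes part in the export of proteins without a signal peptide, did not share these falls. It stood at 77.7 and 103 CPM in WT and at 91.7 and 78.8 CPM in P65KO, so that the WT libraries enclosed the P65KO libraries. The log2 fold change of -0.08 had a 95% interval of -0.37 to 0.21 (edgeR adjusted p = 0.733), corresponding to 0.772-fold to 1.16-fold. The gene overlaps S100a1 by 98 bases, and S100a1 had 0 to 7 counts per library. Relative to S100a4, the RPKM of S100a13 was 0.367 and 0.294 in WT and 0.683 and 1.18 in P65KO.

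The S100 genes on chromosome 3 were next compared with their neighbours. From S100a1 to S100a10 (90511034 to 93564645) the RefSeq table lists 70 protein-coding genes, of which 67 are in the counts table and 7 had enough counts to test. All 7 are S100 genes: 4 fell, 3 did not pass and 0 rose (the background shares are those above; at an unadjusted p under 0.05, S100a9 was higher, and DESeq2 and limma-voom called 0 as higher). Near-silent genes lay among the expressed ones: S100a5, between S100a4 and S100a6, had 1 count in all libraries together, and S100a3 had 1 to 4 counts per library. Of the 52 genes in the interval with other names, 51 had under 10 counts over the 4 libraries together. S100a10 and S100a11 sit side by side at one end and S100a13 at the other. S100a4 and S100a6, which fell, thus lie between S100a13, which did not pass, and S100a8 and S100a9, which were highest in P65KO replicate 1.

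**Figure D2:**
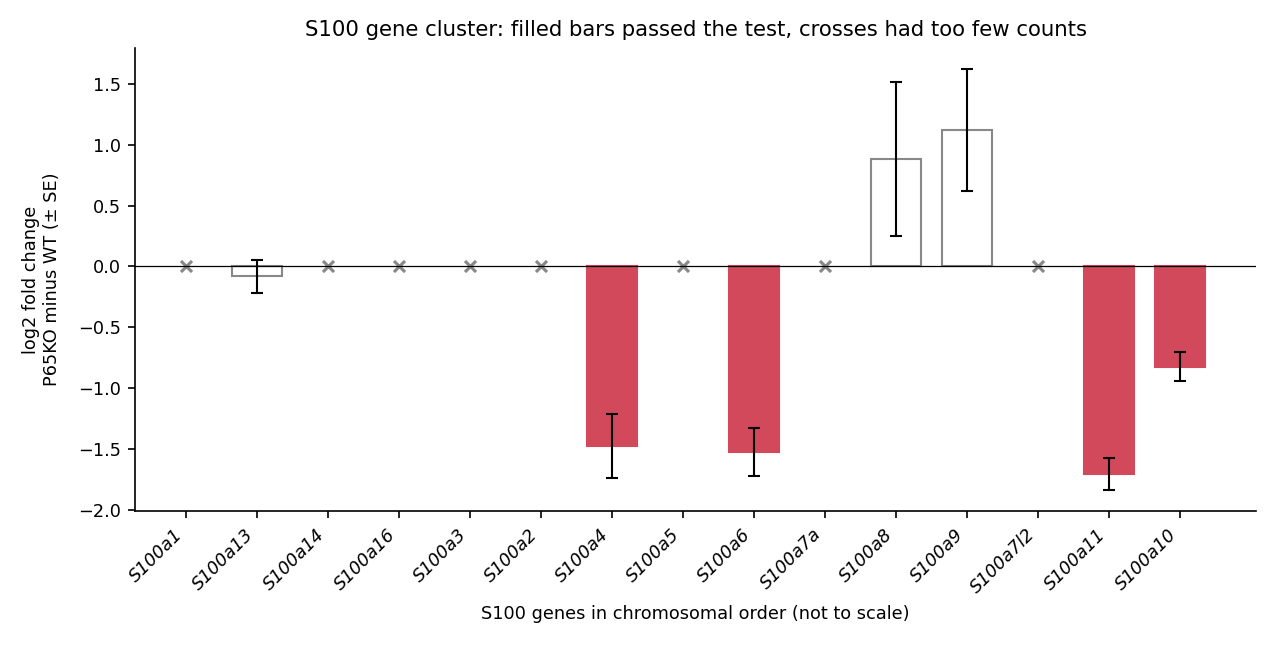
Log2 fold change (P65KO minus WT, with its standard error) of the 15 S100 genes of the chromosome 3 cluster, drawn in chromosomal order with equal spacing. Filled bars are the 4 genes that passed the test, open bars the 3 that did not, and crosses the genes with too few counts to test.

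S100a8 and S100a9 form calprotectin, the main calcium-binding protein of neutrophils and monocytes. S100a9 was counted 74 and 60 times in WT, 239 and 46 times in P65KO, and S100a8 39 and 33 times against 118 and 12. For each gene the group values overlapped, with P65KO replicate 1 highest and P65KO replicate 2 lowest. Neither passed (edgeR adjusted p of 0.143 for S100a9 and 0.374 for S100a8). Without P65KO replicate 1 the log2 difference of S100a8 turned from 0.88 to -1.54 (edgeR adjusted p = 0.0303), and without P65KO replicate 2 it was 1.74 (0.00104); S100a9 passed without P65KO replicate 2, at 1.86, and with the replicate number as a block, at 0.90 (edgeR adjusted p = 1.7e-04), and stood at -0.50 without P65KO replicate 1 (0.244). The member Anxa1 was likewise highest in P65KO replicate 1 and passed without P65KO replicate 2. The neutrophil marker sum given above was likewise highest in P65KO replicate 1 and lowest in P65KO replicate 2; its part in these values was not tested. The other S100 genes of the list, 9 of 11, had too few counts to test, and 5 had 0 counts in every library.

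Promoter windows were available from RefSeq (GRCm38.p6) for 8 of the 10 members, all but S100a10 and Anxa6, each running from 250 bases before to 50 after the start site. They were searched on both strands for the kappa-B consensus bound by NF-kB, for the AP-1 motif TGANTCA and for the TATA box TATAAA. The kappa-B consensus occurred in 0 of the 8 windows; it is found in 8.46% of all 32851 windows of this length and in 10.45% of the 10986 windows of genes tested. The AP-1 motif occurred in 2 of the 8, S100a11 and Anxa2, against 7.81% of all windows and 4.81% of those of genes tested. The TATA box occurred in 3, S100a4, Anxa1 and Anxa2, against 13.62% and 6.9%. These are matches of letters in short windows and say nothing about binding by any factor.

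The 3 windows printed here are shown because they hold these matches in genes that fell. They read 5′ to 3′ along each gene, all on the plus strand, from chr3:93520246-93520545, chr9:69453433-69453732 and chr3:90603520-90603819. Capitals mark the AP-1 motif in S100a11 (its first base at -136 and at -38 from the start site), the AP-1 motif and TATA box in Anxa2 (-95 and -17) and the TATA box in S100a4 (-31).
S100a11: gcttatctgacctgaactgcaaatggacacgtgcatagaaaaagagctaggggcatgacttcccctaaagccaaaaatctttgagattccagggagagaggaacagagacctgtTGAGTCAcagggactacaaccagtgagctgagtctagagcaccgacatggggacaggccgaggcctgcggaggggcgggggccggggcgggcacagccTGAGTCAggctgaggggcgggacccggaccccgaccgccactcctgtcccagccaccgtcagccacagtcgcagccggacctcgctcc
Anxa2: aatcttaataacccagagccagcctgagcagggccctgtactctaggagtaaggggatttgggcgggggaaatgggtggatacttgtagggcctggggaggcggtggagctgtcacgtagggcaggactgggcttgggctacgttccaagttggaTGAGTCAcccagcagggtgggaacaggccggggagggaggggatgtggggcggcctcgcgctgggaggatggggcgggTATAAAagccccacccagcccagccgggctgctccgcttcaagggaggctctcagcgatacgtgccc
S100a4: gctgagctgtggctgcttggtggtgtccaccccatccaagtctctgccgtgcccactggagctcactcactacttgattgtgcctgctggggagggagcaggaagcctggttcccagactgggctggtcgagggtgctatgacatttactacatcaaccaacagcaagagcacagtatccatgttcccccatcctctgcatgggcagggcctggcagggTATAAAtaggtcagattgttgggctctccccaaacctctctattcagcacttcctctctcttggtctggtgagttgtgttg

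Both AP-1 matches of S100a11 and that of Anxa2 have the same letters, TGAGTCA, whose other strand also meets the motif and was counted once. The Anxa1 TATA box lies at -32, while S100a6, S100a13, Anxa5 and Ahnak hold none of the 3 motifs in these windows. Windows with no match include genes that fell (S100a6 and Ahnak) and genes that did not pass (S100a13 and Anxa5).

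The annexins divided. Anxa2 (Entrez 12306; chromosome 9, 69453683 to 69491792), which carries S100a10 to the inner face of the plasma membrane, stood at 115 and 147 CPM in WT and at 98.4 and 73.7 CPM in P65KO. The groups did not overlap, although the gap between WT replicate 1 and P65KO replicate 1 was smaller than the gap between replicates of either group. Its log2 difference was -0.61 (SE 0.14; interval -0.92 to -0.29; edgeR adjusted p = 0.00991). This is the least stable of the 6 falls. It did not pass without WT replicate 1, WT replicate 2 or P65KO replicate 2 (log2 -0.78, -0.42 and -0.42; edgeR adjusted p of 0.0559, 0.221 and 0.146), nor with no filter (0.159).

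Per length, the proportion of S100a10 to its partner Anxa2 was similar in the WT libraries and P65KO replicate 2, and lower in P65KO replicate 1. The RPKM ratio of S100a10 to Anxa2 was 11.6 and 11.8 in WT and 9.04 and 11.5 in P65KO. The scaffold Ahnak (Entrez 66395; chromosome 19, 8989284 to 9076935), a very large protein linked to calcium entry in T cells, stood at 171 CPM in both WT libraries and at 73.7 and 85.0 CPM in P65KO. Its WT libraries differed by less than those of any other member. On the log2 scale Ahnak differed by -1.11 (SE 0.10; interval -1.33 to -0.89; edgeR adjusted p = 9.311e-06), with a call under all 10 alternatives. Because the transcript is long, its level per length was low, at a mean of 9.34 RPKM in WT, with P65KO libraries at 3.92 and 4.48 RPKM. All 3 named parts of the complex, S100a10, Anxa2 and Ahnak, thus passed as lower, where 11.7% of all genes tested did. The Anxa2 call was the least stable, as given above.

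Anxa1 (Entrez 16952; chromosome 19, 20373434 to 20390671), whose product limits phospholipase activity and signals through formyl peptide receptors, rested on 25 and 30 reads in WT, 103 and 31 in P65KO. P65KO replicate 1 stood at 22.7 CPM, and P65KO replicate 2, at 6.86 CPM, was close to the WT libraries at 5.43 and 6.46 CPM. The log2 fold change of 1.31 (SE 0.44; interval 0.35 to 2.28) did not pass. It was 0.21 without P65KO replicate 1, and 1.93 and past the threshold without P65KO replicate 2 (edgeR adjusted p = 9.28e-04). The macrophage and monocyte marker sum was also highest in P65KO replicate 1; the part of such transcripts in the Anxa1 value was not tested.

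Anxa5, the annexin used to stain phosphatidylserine on dying cells, and Anxa6, which has a doubled set of annexin repeats, were level. Anxa5 (Entrez 11747; chromosome 3, 36448923 to 36475887, outside the S100 cluster) stood at 96.8 and 106 CPM in WT and 108 and 98.1 CPM in P65KO. Its log2 fold change was 0.03, with a 95% interval of 0.873-fold to 1.19-fold. Anxa6 (Entrez 11749; chromosome 11, 54978953 to 55033471), at 767 and 786 CPM in WT and 732 and 785 CPM in P65KO, was the annexin with the most reads; it overlaps the long non-coding Gm19911, and without strand shared reads cannot be assigned. Its log2 fold change was -0.03, with an interval of 0.854-fold to 1.12-fold. These intervals leave room for changes smaller than those of the genes that fell, and neither gene passed under any of the 10 alternatives. The RPKM ratio of Anxa6 to Anxa2 was 3.44 and 2.75 in WT and 3.84 and 5.50 in P65KO.

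**Figure D3:**
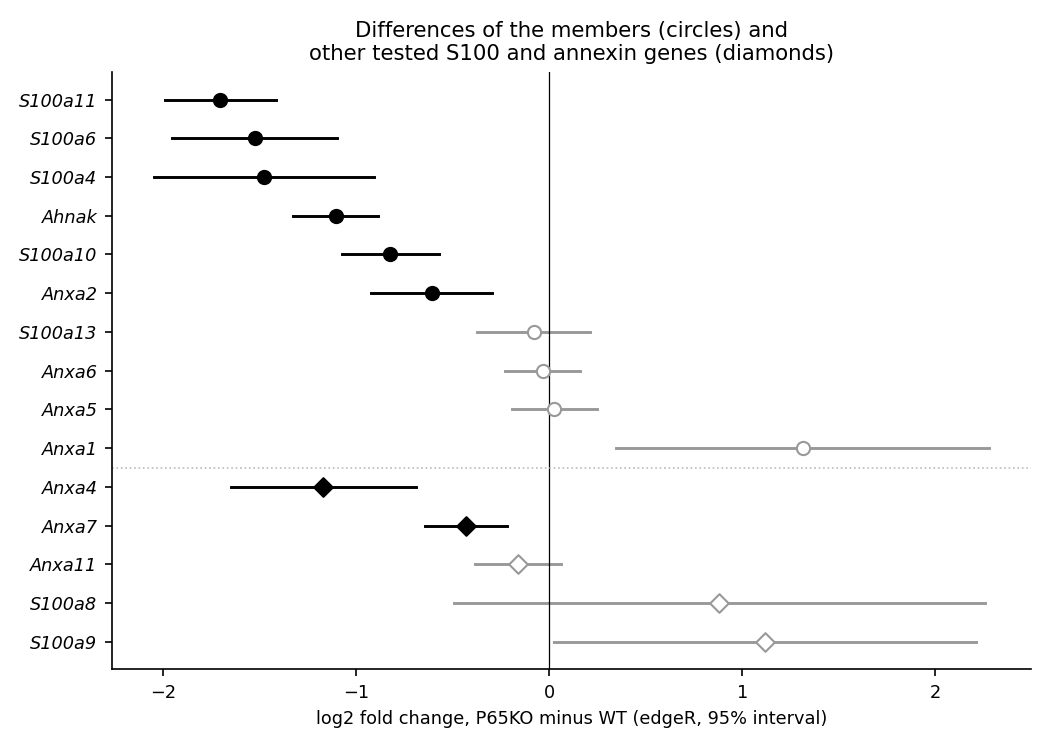
Log2 fold change (P65KO minus WT) with its 95% interval for the 10 members (circles) and the 5 other S100 and annexin genes with enough counts (diamonds). Filled symbols passed the test. S100a13, Anxa6, Anxa5, S100a8 and Anxa11 have intervals that span 0. Those of Anxa1 and S100a9 do not, though neither gene passed, since the intervals are not adjusted for the number of genes tested. Anxa1, S100a8 and S100a9 have the widest intervals.

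Other annexins were few. Of 8 further family members, 3 were tested, and 2 of them were lower and 0 higher (edgeR), where 11.7% of all genes tested passed as lower. DESeq2 called 1 as lower and limma-voom 2, and with no filter on low counts 0 were lower. At an unadjusted p under 0.05 (edgeR) 0 were higher, and DESeq2 and limma-voom called 0 as higher. Anxa4 fell to 9.39 ± 2.32 CPM in P65KO, with WT at 21.2 ± 2.01 CPM (mean and SD, n = 2; log2 -1.17; edgeR adjusted p = 0.00239). Its call ended without WT replicate 1, without WT replicate 2 and with no filter, at adjusted p of up to 0.0960. Anxa7, also called synexin, fell to 83.0 ± 2.42 CPM, with WT at 112 ± 5.43 CPM (log2 -0.43; edgeR adjusted p = 0.00796), and 5 of 10 alternatives ended that call: no filter, DESeq2, and leaving out WT replicate 1, WT replicate 2 or P65KO replicate 2 (adjusted p of up to 0.0962). Anxa11 stood at 96.1 and 85.8 CPM on average and did not pass (edgeR adjusted p = 0.300).

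**Figure D4:**
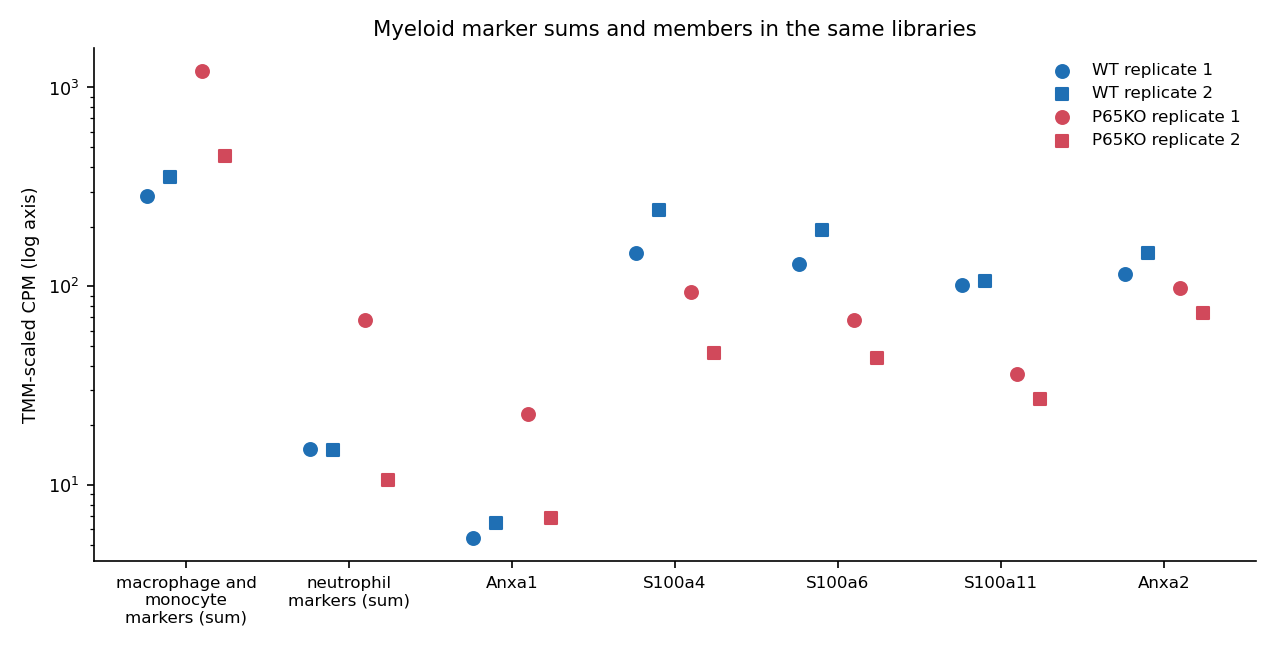
Summed CPM of 11 macrophage and monocyte markers and of 9 neutrophil markers in each library, beside Anxa1, S100a4, S100a6, S100a11 and Anxa2, on a log axis. P65KO replicate 1 is above P65KO replicate 2 for every quantity shown. Among the members not shown, that ratio was 1.05 for S100a10, 1.16 for S100a13 and 1.10 for Anxa5. It was 0.866 for Ahnak and 0.932 for Anxa6, which had the reverse order. S100a4, S100a6, S100a11 and Anxa2 passed as lower in P65KO, as did 11.7% of all genes tested.

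For some members, replicates of one group differed more than they did for most genes. Among 8576 genes with a mean of at least 50 counts, the middle 90% had a ratio of WT replicate 2 to WT replicate 1 between 0.790 and 1.28. S100a4, at 1.65, S100a6, at 1.47, S100a13, at 1.32, and S100a10, at 1.29, lay above that range, and Anxa2 just past its upper end at 1.28. For P65KO replicate 1 over P65KO replicate 2 the range was 0.800 to 1.33, and S100a4, at 2.02, and S100a6, at 1.55, lay above it, with S100a11 and Anxa2 just past its upper end at 1.34 and 1.33. Ahnak had ratios of 1.0 and 0.866 and Anxa6 of 1.02 and 0.932. The macrophage and monocyte marker sum differed in the same direction within each group, higher in WT replicate 2 and in P65KO replicate 1. Its part in the spread of S100a4 and S100a6 was not tested. Between groups the marker sum was higher in P65KO and these S100 genes were lower there; its part in the 6 falls was not tested.

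Known partners and receptors outside the families were counted next. Of 16 such genes, 9 were tested: 1 fell, 1 rose and 7 missed the threshold, where 20.7% of all genes tested passed, and the median log2 fold change was -0.08. Myh9, the heavy chain of non-muscle myosin that S100a4 binds, stood at 1706 ± 234 CPM in WT, 1736 ± 73.2 CPM in P65KO (mean and SD, n = 2). Cacybp, the calcyclin-binding protein named for S100a6, stood at 72.0 and 71.8 CPM. Sugt1, a co-chaperone that binds S100a6, stood at 106 and 98.3 CPM. Tlr4, a receptor for S100a8 and S100a9, fell from 5.62 to 1.66 CPM, and Plaur, the urokinase receptor, rose from 1 and 5 counts to 26 and 12. Both calls rest on 29 counts or fewer per library and ended in 5 of 10 alternatives each, no filter, DESeq2 and leaving out either WT library among them. The other alternative was leaving out P65KO replicate 2 for Tlr4 and P65KO replicate 1 for Plaur (edgeR adjusted p of up to 0.212 and 0.225).

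Some membrane repair genes work alongside annexins. Of 13, 10 were tested, 2 rose, 8 did not pass and 0 fell, against 20.7% passing over all genes tested (edgeR; 1 was lower at an unadjusted p under 0.05, DESeq2 and limma-voom called 0), with a median log2 fold change of 0.00. Cast, the inhibitor of calpains, rose to 132 ± 1.32 CPM, with WT at 99.2 ± 8.55 CPM (mean and SD, n = 2; log2 0.42; edgeR adjusted p = 0.010). Vps4a, an ATPase of the ESCRT machinery, rose to 85.5 ± 11.3 CPM, with WT at 62.8 ± 2.52 CPM (edgeR adjusted p = 0.0163). The Cast call ended in 4 of 10 alternatives, no filter and leaving out WT replicate 2 or either P65KO library (adjusted p of up to 0.116). The Vps4a call ended in 5 of 10, no filter, DESeq2 and leaving out either WT library or P65KO replicate 1 (up to 0.181). Capns1, the EF-hand subunit of calpain, stood at 324 and 270 CPM and did not pass (edgeR adjusted p = 0.0545). Capn1, a calpain large subunit, stood at 289 and 284 CPM, and Chmp4b, a component of ESCRT filaments, at 199 and 182 CPM.

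Other EF-hand genes, which bind calcium through the same fold as the S100 proteins, moved in both directions. Of 30, 27 were tested, 4 fell, 5 rose and 18 missed the threshold, where 20.7% of all genes tested passed, with a median log2 fold change of 0.00. Calm2, which encodes calmodulin, stood at 209 CPM in WT, 198 CPM in P65KO, and did not pass (edgeR adjusted p = 0.678). Lcp1, the actin bundler plastin of leukocytes, had the highest RPKM of the list and did not pass (edgeR adjusted p = 0.159). Actn1, an actin crosslinker, rose to 509 ± 43.8 CPM, with WT at 259 ± 7.22 CPM (mean and SD, n = 2; edgeR adjusted p = 1.512e-05). Rcn1, a calcium-binding protein of the endoplasmic reticulum, rose 1.69-fold, and Rasgrp2, a guanine nucleotide exchange factor for Rap proteins, 1.5-fold; these calls held under all 10 alternatives, as did that of Actn1. Without WT replicate 1, WT replicate 2 or P65KO replicate 2, EF-hand genes lower numbered 1 and higher 3. Nucb1, a Golgi protein, fell 1.42-fold, a call that ended without WT replicate 1 (edgeR adjusted p = 0.0587). Pls3, another plastin, fell from 4.64 to 1.10 CPM, and 5 of 10 alternatives ended its call, no filter, DESeq2 and leaving out either WT library or P65KO replicate 2 (adjusted p of up to 0.241).

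Together the 10 members took 0.229% and 0.270% of WT counts, 0.172% and 0.161% of P65KO counts. Per length, the order in WT ran from S100a10 at a mean of 1133 RPKM through S100a4 at 397, Anxa6 at 296, S100a6 at 226, S100a11 at 209, S100a13 at 128, Anxa2 at 96.9, Anxa5 at 59.5 and Ahnak at 9.34 to Anxa1 at 4.32 RPKM. S100a4, at 302 and 491 RPKM, overlapped none of its neighbours in that order, since Anxa6 stood at 294 and 298 RPKM. S100a6, at 184 and 268 RPKM, enclosed S100a11, at 205 and 213 RPKM. In P65KO, S100a10 at a mean of 620 RPKM still led, followed by Anxa6 at 280, S100a4 at 138 and S100a13 at 117 RPKM. There S100a4, at 185 and 91.0 RPKM, enclosed S100a13, at 127 and 108 RPKM. In P65KO S100a6, at 92.9 and 59.3 RPKM, stood among S100a11, at 71.2 and 52.8 RPKM, and Anxa2, at 70.6 and 52.4 RPKM, and overlapped both. Anxa5, at 61.8 and 55.6 RPKM, lay within the values of S100a11 and of Anxa2.

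**Figure D5:**
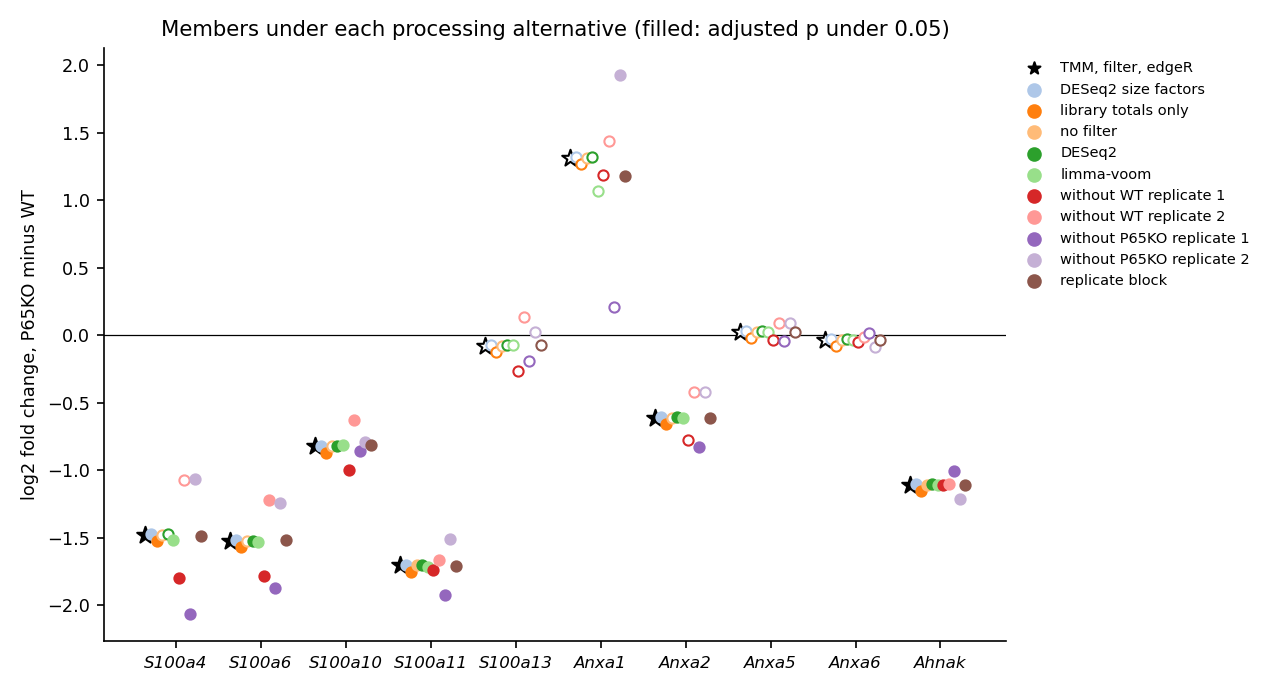
Log2 fold change (P65KO minus WT) of each member under the reported settings (star) and 10 alternatives (circles), filled where the adjusted p was under 0.05. S100a11 and Ahnak are filled throughout, Anxa2 is open in 4 of 10, and Anxa1 ranges from 0.21 to 1.93.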

How the data were processed

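RNA of 4 Treg libraries (WT and P65KO, 2 each) had been purified with an RNeasy Plus kit and prepared with a TruSeq RNA kit, per the labels' protocols. For each Entrez gene and library the authors deposited a raw count and a log2 RPKM value. Subread, featureCounts and limma on GRCm38 (mm10) are named in the submitters' processing notes; their versions, annotation and strand setting were not stated there. Without strand, overlapping genes cannot be told apart. Gene lengths computed back from the deposited log2 RPKM were whole within 0.01 bases for 27178 of 27179 genes, and RPKM here uses them with library totals. Groups and replicate numbers came from titles, and nothing says that replicates are separate mice, so p-values measure only how these libraries vary, which may be technical.

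Counts were filtered with filterByExpr, scaled by TMM and compared in edgeR 4.0.16 (R 4.3.3) by quasi-likelihood F tests, with Benjamini-Hochberg adjustment over 11172 genes and a threshold of 0.05. Genes without a symbol (571) were kept. "Rose" and "fell" mean past that threshold. Standard errors are the log2 fold change divided by the square root of F. Alternatives were DESeq2 1.42.0, limma-voom (limma 3.58.1), other scalings, no filter, each library left out and a replicate block. The scripts were tested on simulated data with known changes. The members, lists and rules were chosen with earlier results of these data known. All members are named; from other lists, up to 6 genes past the threshold by size of change, the 3 highest in RPKM, and every S100 or annexin gene with enough counts; marker genes were added after their values were seen, and some genes are not reported here. A count of 3 in a library corresponds to 0.649 to 0.665 CPM, for counting error only.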

Additional observations from a re-analysis of the deposited data

How the results depend on the processing

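Of 100 values of the members under 10 alternatives, 89 kept their side of the threshold, 9 lost a call and 2 (Anxa1) gained one. No called value changed sign, but values near 0 did: S100a13 without WT replicate 2 (0.14) or P65KO replicate 2 (0.02), Anxa5 with library totals (-0.02), without WT replicate 1 (-0.04) or P65KO replicate 1 (-0.04), and Anxa6 without P65KO replicate 1 (0.02). Members lower numbered 6, against 2 with no filter on low counts, where 16183 genes were tested, and 4 to 6 with a library left out. Members higher numbered 0, against 0 to 1 with a library left out. The replicate numbers pair nothing in the labels: with the number as a replicate block, 1 member (Anxa1) was higher, 6 were lower and 2319 genes passed; S100a9 also passed (0.90). Deviations of equally numbered libraries correlated at -0.137, and a crossed pairing, added after seeing the data, called 2973 genes, 6 members lower and 1 higher. Over all genes, 2310 passed, against 771 with no filter, 1318 with DESeq2 and 743 to 1633 with a library left out. On the log2 scale S100a8 turned from 0.88 to -1.54 without P65KO replicate 1, and was 1.74 without P65KO replicate 2; the cause was not tested. Leaving out a library leaves 1 in its group, which is then assumed to vary like the other group. Anxa1, with 25 to 31 counts in 3 libraries, has the largest standard error of the members (0.44).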
